A study of Mus musculus and Mus musculus x Mus spretus with 8 samples.

Results

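The axon guidance genes described here are the semaphorins, slits, netrins and ephrins together with their receptors, the plexins, neuropilins, robos, Unc5 proteins, Dcc and Eph kinases. They were chosen by gene symbol alone, and 71 of the 24060 symbols in the table belong to them, 37 for ligands and 34 for receptors. Their transcripts were read in 8 single cells labelled as glomus cells, the oxygen-sensing cells of the carotid body, from wild-type mouse pups at postnatal days 4 to 5. Cells 1 and 3 to 8 carry the strain label C57BL/6, and cell 2 carries C57BL/6 X SPRET/EiJ, SPRET/EiJ being derived from Mus spretus. All 8 were picked by the study for transcripts of Th, Uchl1 and Kcnk3. The labels name no animal or litter and no second condition. The 8 cells therefore count as 1 sample, no p-value is given over them, and every range describes these cells only.

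Guidance proteins steer growing axons and migrating cells by attraction or repulsion. Netrins attract through Dcc and repel through the Unc5 receptors, slits repel through robos, secreted semaphorins act on neuropilins joined to plexins, and membrane semaphorins bind plexins directly. Ephrins sit in the membrane and bind Eph receptor kinases on a touching cell, and both sides can signal. In the body they act on neural crest migration, on the growth of nerves and vessels, and on contacts between cells. Glomus cells descend from the neural crest and are contacted by sensory fibres of the carotid sinus nerve and by a dense capillary bed.

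Levels are the authors' RPM, a gene's count scaled to the same library total in every cell. A gene was called detected at 1 RPM or more, which is 3.96 to 30.2 reads, since the cells held from 3960200 to 30218206 reads, the most in cell 2. Where no read was counted, the true level may still be as high as 0.0993 RPM (cell 2) to 0.758 RPM (cell 1), for counting error only, as copies made by PCR are not separate molecules. The cells detected from 4040 to 6956 symbols. RPM is not corrected for length, so levels of different guidance genes are compared only as RPM per kilobase (kb) of merged exons.

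Cell 4 stood apart from the others in markers of cell type. Of 9 glomus markers, 7 were detected in cell 4 and all 9 in each other cell. The 9 markers summed to 6596 RPM in cell 4 and to 16505 to 25619 RPM elsewhere. In cell 4 the receptor gene Olfr78 stood at 0.202 RPM and Cox4i2 at 0. Of 6 chromaffin or sympathetic markers cell 4 detected 5, summing to 5336 RPM against 406 to 1623 RPM in the others. Dbh, the enzyme that makes noradrenaline, stood at 2588 RPM in cell 4, and Pnmt at 0 in all cells. Slc6a2 (1873 RPM, and 1230 RPM in cell 7) and Prph (223 RPM) were also highest in cell 4. The list did not rise as a whole, as Hand2 was lowest in cell 4 (122 RPM) and Npy was no higher there (531 RPM) than in cell 3 (538 RPM). Endothelial markers other than Cldn5 were at or near 0 in all 8 cells (7 of 9 had 0 reads, and Esam reached 0.223 RPM), while Cldn5 itself reached 2730 RPM in cell 2. Of the glial markers, Sox10, S100b and Gfap had 0 reads in all 8 cells, and Fabp7 stood at 71.6 RPM in cell 2 with 0 reads elsewhere. Blood markers were at 0, and Pdgfrb among the mural markers reached 350.2 RPM in cell 3. Of 6 fibroblast markers 1 was detected, and the list summed to 184 RPM in cell 6, 35.5 RPM in cell 7 and 0.223 RPM or less elsewhere. The part of these differences in the results below was not tested, and values without cell 4 are given where it moves them.

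Of the guidance genes 11 were broadly present, being detected in at least 6 of the 8 cells. These 11 of 71 (15.5%) stand beside 14.2% of all symbols, so broad detection was about as frequent among guidance genes as in the table as a whole. They are the ligand genes Ntn1, Slit2, Slit3 and Sema4d and the receptor genes Unc5c, Plxna3, Plxnb2, Plxnd1, Epha5, Epha7 and Ephb6. Detection in at least 1 cell was met by 44 members (62.0%) against 44.8% of symbols. Detection in exactly 1 cell was met by 13 members (18.3%) against 8.33% of symbols, and 27 members (38.0%) were detected in no cell against 55.2%. Of these 27, 26 had 0 reads throughout (51.7% of symbols), and Sema6c reached 0.505 RPM. Without cell 4, 13 members were detected in at least 5 of 7 cells, with Epha4 and Efnb1 added, beside 16.4% of symbols.

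**Figure D1:**
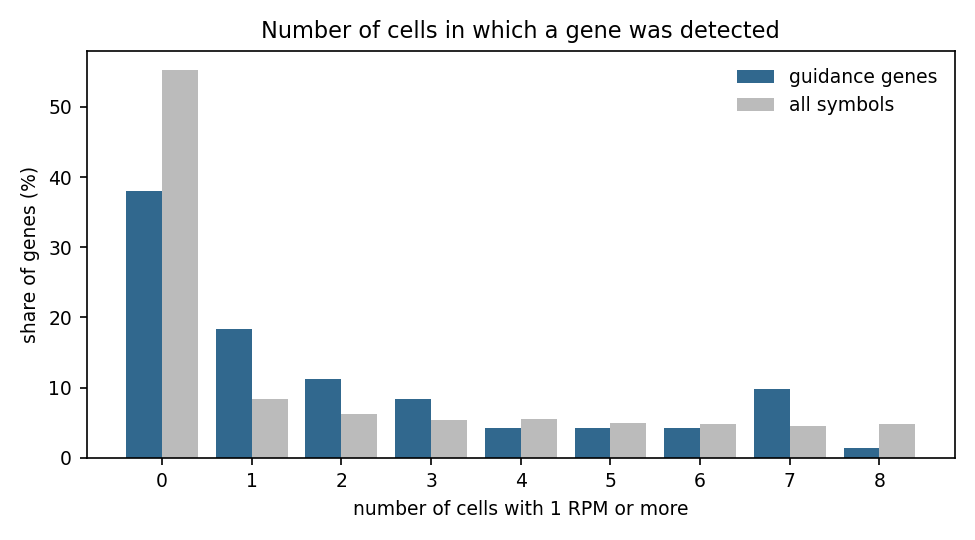
Share of the 71 guidance genes and of all 24060 symbols (vertical axis, %) by the number of cells in which they were detected at 1 RPM or more (horizontal axis). The guidance genes had a smaller share at 0 cells (38.0% against 55.2%) and a larger one at 1 cell (18.3% against 8.33%), and 1.41% of them against 4.88% were detected in all 8 cells.

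Each cell detected between 11 (cell 5) and 27 (cell 1) of the 71 genes, with a median of 18 and an SD of 6.21 over the cells. As a share of the members this was 15.5% to 38.0%, beside 16.8% to 28.9% of all symbols in the same cells, and the lowest and highest cell were the same by both counts. Together the members took 0.118% of a cell's reads in cell 5, 0.330% at the median and 1.03% in cell 4. Cell 4 reached 10342 RPM in sum, of which Nrp1 and Plxna4 made up 65.9%. The other 7 cells held 1179 to 3599 RPM.

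**Figure D2:**
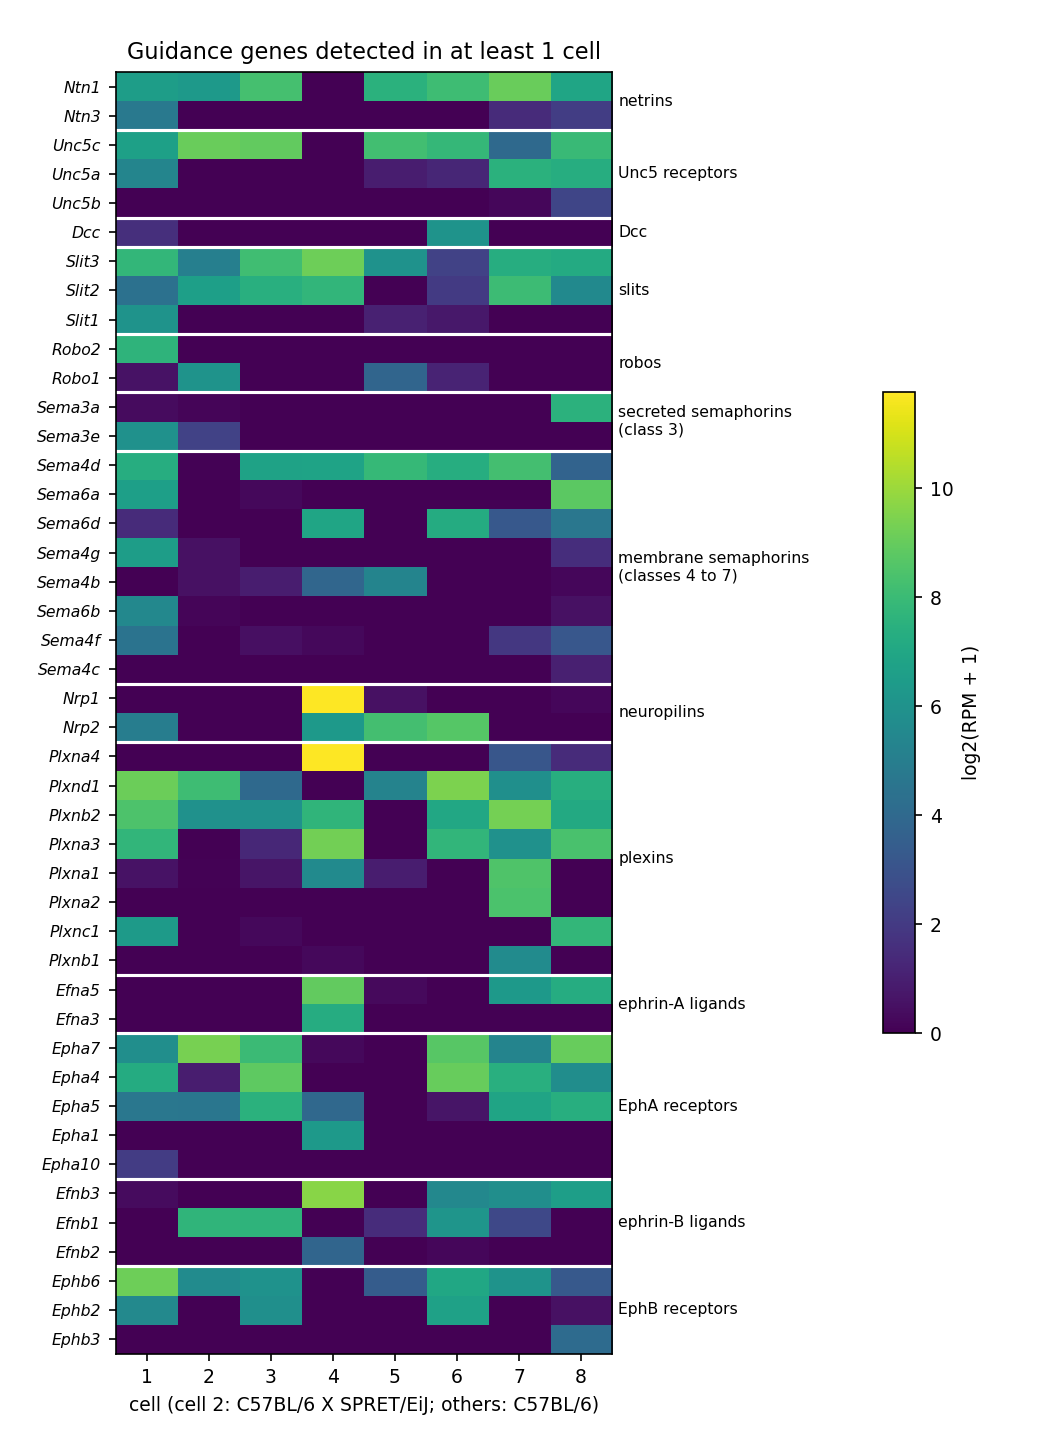
Level of each of the 44 guidance genes detected in at least 1 cell (rows, by family) in each of the 8 cells (columns), as log2(RPM + 1) in colour. Ntn1, Unc5c, Slit2, Slit3, Sema4d, Plxnb2 and Plxnd1 are present in most columns, while Nrp1 and Plxna4 stand out in cell 4 at 3464 and 3356 RPM.

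The start regions of 3 broadly detected receptor genes are shown as examples. The RefSeq table of build GRCm38.p6 (the assembly of mm10) held start windows for 61 of the 71 members and 10 of the 11 broadly detected ones. Of these 10, 6 had at least 1 window of 250 bases before the start that overlaps no annotated exon. The windows are printed 5′ to 3′ on the strand of the gene. Capitals mark the letters GCGTG or their complement, a core letter string of hypoxia-inducible factor sites, and ACGTG, the other such core, was searched on both strands too. Plxnd1 lies at chr6:115995006-115995255 on the minus strand, Plxnb2 at chr15:89180789-89181038 on the minus strand and Epha7 at chr4:28812881-28813130 on the plus strand.
Plxnd1: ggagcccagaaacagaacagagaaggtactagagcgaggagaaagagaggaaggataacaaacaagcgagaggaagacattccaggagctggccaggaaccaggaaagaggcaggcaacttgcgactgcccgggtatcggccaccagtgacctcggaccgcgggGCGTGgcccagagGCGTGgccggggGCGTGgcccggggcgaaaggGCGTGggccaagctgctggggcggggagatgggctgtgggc
Plxnb2: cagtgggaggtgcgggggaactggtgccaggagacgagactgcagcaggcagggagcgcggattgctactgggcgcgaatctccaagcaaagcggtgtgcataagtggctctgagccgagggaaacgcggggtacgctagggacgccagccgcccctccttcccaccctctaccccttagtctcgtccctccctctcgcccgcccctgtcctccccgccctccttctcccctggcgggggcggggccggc
Epha7: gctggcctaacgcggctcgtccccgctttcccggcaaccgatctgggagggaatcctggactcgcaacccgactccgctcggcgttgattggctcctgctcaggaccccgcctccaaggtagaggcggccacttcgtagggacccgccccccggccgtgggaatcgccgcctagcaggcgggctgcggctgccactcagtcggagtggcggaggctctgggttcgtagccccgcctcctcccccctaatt
GCGTG occurred 4 times in the Plxnd1 window and in neither of the other 2, and ACGTG in none of the 3. At least 1 GCGTG was found in 28.2% of all 32851 windows and in 33.8% of the 77 windows of members, and 4 or more in 0.846% of all windows. ACGTG was found in 16.6% of all windows and 15.6% of those of members. The GC box GGGCGG, which was counted separately and can share an end letter with GCGTG, was found in 32.7% of all windows and in 70.1% of those of members. It occurred 1, 4 and 1 times in the Plxnd1, Plxnb2 and Epha7 windows. These windows have a G and C content of 64.8%, 69.2% and 69.2%, beside a median of 52.4% over all windows. The exon-free windows not printed are those of Plxna3, Epha5, Sema4d and a second start of Plxnb2. Their G and C content was 68%, 62.4%, 52.4% and 63.6%. Of the 7 exon-free windows only the printed Plxnd1 window held GCGTG, and none held ACGTG. A match is a match of letters and not a bound site.

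Among netrins, Ntn1, which encodes netrin-1 (chromosome 11, 68209364 to 68400823, minus strand of mm10), was detected in 7 of 8 cells. Its level ran from 0 in cell 4 to 543 RPM in cell 7, with a median of 149 RPM. The 7 cells other than cell 4 all held 80.2 RPM or more, so no cell lay between them and 0. Ntn3, a netrin of narrower expression, was detected in 3 cells, at 26.0 RPM in cell 1 and at 1.70 and 3.34 RPM in cells 7 and 8. Ntn4, Ntn5 and the membrane-tethered netrin-G genes Ntng1 and Ntng2 had 0 reads in all 8 cells.

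Its repulsive receptor gene Unc5c (chromosome 3, 141465216 to 141834924) was detected in the same 7 cells as Ntn1. Unc5c ranged from 0 in cell 4 to 545 RPM in cell 2 around a median of 239 RPM, and the lowest of the 7 was cell 7 at 15.1 RPM. Unc5a was detected in 4 cells, at 184 RPM in cell 7, 162 in cell 8, 40.4 in cell 1 and 1.41 in cell 6. Cell 7, with the least Unc5c of these 7, thus had the most Unc5a and the most Ntn1. Unc5b was detected in cell 8 only, at 4.50 RPM, and Unc5d had 0 reads. Dcc, the receptor for attraction, stood at 64.6 RPM in cell 6 and 2.02 RPM in cell 1, with 0 reads in all further cells. Per kb of exon, Unc5c had a mean of 12.5 RPM per kb, Unc5a 11.6, Dcc 0.632 and Unc5b 0.0929. The medians were 12.5 RPM per kb for Unc5c and 0.277 for Unc5a, whose mean rests on cells 1, 7 and 8. Unc5b minus Unc5c in the same cell had a median of -3.36 log2 units of RPM per kb + 1 (SD 1.77, range -4.88 to 0), below 0 in 7 cells. The netrin receptor Neo1, which also binds RGM proteins and belongs to the partner list, passed 1 RPM in 5 cells, with 199 RPM in cell 4 and a median over all 8 of 9.45 RPM.

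Slit genes were present in every cell. Slit3 (chromosome 11, 35121224 to 35708507) was the only member detected in all 8 cells, from 3.96 RPM in cell 6 to 572 RPM in cell 4, with a median of 152 RPM. Slit2 (chromosome 5, 47983138 to 48307733) was detected in 7 cells with a median of 72.4 RPM, from 0 in cell 5 to 270 RPM in cell 7, and at 2.97 RPM in cell 6. Both were thus lowest in cells 5 and 6 among the C57BL/6 cells. Slit1 stood at 64.4 RPM in cell 1 and 1.12 RPM in cell 5, and passed 1 RPM nowhere else. Per kb, Slit2 lay below Slit3 in all 8 cells, and the median difference was -2.86 log2 units of RPM per kb + 1 (-4.41 to -0.38, SD 1.49). This difference leans on the annotated length of 25.4 kb for Slit2 and 6.07 kb for Slit3. With the longest transcript it was -1.95, and with RPM as it stands -1.07.

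Their receptors were sparse. Robo1 was detected in 3 cells, at 64.2 RPM in cell 2, 13.4 in cell 5 and 1.27 in cell 6. Robo2 was detected in cell 1 only, at 200.2 RPM. Robo3, and Robo4 of endothelium, had 0 reads in all 8 cells. In 4 cells (cells 3, 4, 7 and 8) a slit was detected with neither Robo1 nor Robo2. Where 0 reads were found, a level above 0.758 RPM is not allowed by counting, though a transcript can be lost before amplification. Per kb, mean levels were 30.5 for Slit3 and 4.02 for Slit2, against 1.47 for Robo2 and 0.601 for Robo1.

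**Figure D3:**
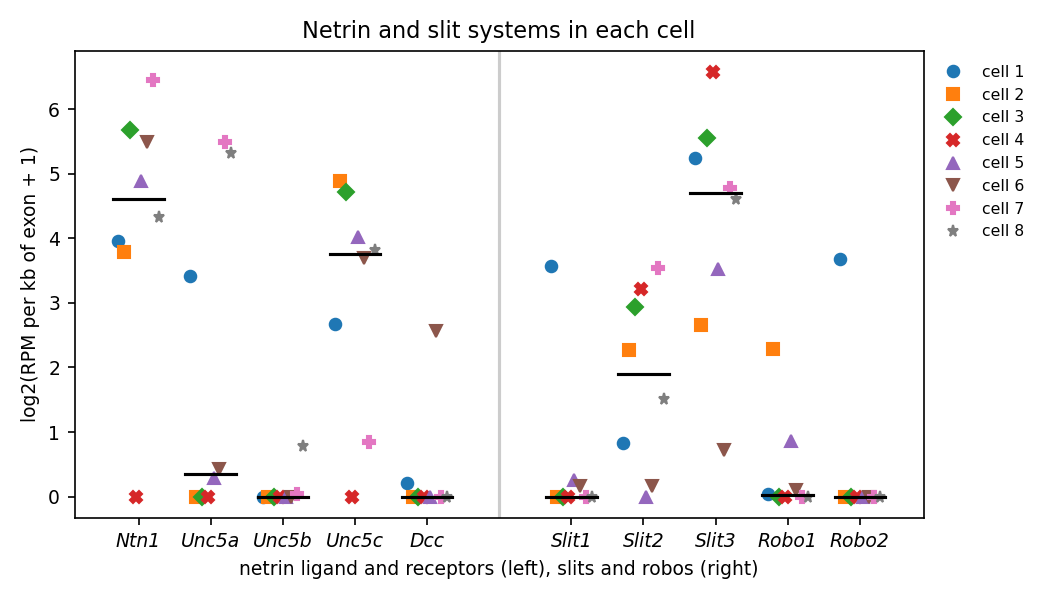
Levels of the netrin system (left) and the slit system (right) in each of the 8 cells (symbols), as log2(RPM per kb of exon + 1), with the median as a black bar. Ntn1, Unc5c and Slit3 lie above 0 in 7, 7 and 8 cells, while Dcc, Unc5b, Robo1 and Robo2 lie at or near 0 in most; cell 4 lies at 0 for Ntn1 and Unc5c and highest for Slit3.

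Among semaphorins, the membrane semaphorin gene Sema4d (chromosome 13, 51685529 to 51793747, minus strand) was the most widely detected. Sema4d stood at 12.3 to 302 RPM in 7 cells, with the highest value in cell 7 and a median over all 8 of 136 RPM. In cell 2, the cross with SPRET/EiJ and the deepest cell, it had 0.0331 RPM. Sema6d was detected in 5 cells, at 149 RPM in cell 6, 119 in cell 4, 23.9 in cell 8, 8.48 in cell 7 and 1.77 in cell 1. Sema6a was detected in 2 cells, at 440 RPM in cell 8 and 98.2 RPM in cell 1, and Sema6a minus Sema6d per kb, stray reads included, was above 0 in 3 cells and below 0 in 3. The other membrane semaphorins reached at most 92.2 RPM (Sema4g in cell 1), and 5 of the 13 were detected in no cell. Sema4d exceeded Sema4c per kb in all 8 cells, with a median difference of 4.21 log2 units (0.01 to 5.34, SD 1.92), and Sema4c had 1.02 RPM in 1 cell.

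Secreted semaphorins, the ligands of neuropilins, were nearly absent. Of 7 genes 5 had 0 reads in every cell. Sema3a, a repellent of sensory and sympathetic axons, was detected in cell 8 at 184 RPM, and Sema3e, which binds Plxnd1 without a neuropilin, in cell 1 at 59.8 RPM and cell 2 at 3.94 RPM. The neuropilin genes themselves were uneven. Nrp1 (chromosome 8, 128358604 to 128503363) stood at 3464 RPM in cell 4 and at or below 0.447 RPM in all others. Nrp2 was detected in cells 6 (401 RPM), 5 (305 RPM), 4 (79.7 RPM) and 1 (30.8 RPM), and had 0 reads in the other 4. Per kb the mean was 44.3 for Nrp1 and 8.63 for Nrp2, but without cell 4 it was 0.00864 for Nrp1 and 8.90 for Nrp2. The order of the 2 thus rests on cell 4, in which Nrp1 exceeded Nrp2 by 5.52 log2 units. A class 3 semaphorin and a neuropilin were detected together in cell 1 only, and these were Sema3e, which does not need a neuropilin, and Nrp2. Sema3a and Nrp1 were detected in different cells.

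Plexins were detected in all 8 cells, with Plxnb2, Plxnd1 and Plxna3 in at least 6. Plxnb2 (chromosome 15, 89155549 to 89180788, minus strand), a receptor of class 4 semaphorins, had a median of 136 RPM and stood at 60.3 to 627 RPM in 7 cells, with 0 reads in cell 5. Plxnd1 (chromosome 6, 115954811 to 115995005, minus strand), known from vessel patterning, had a median of 110 RPM, with 685 RPM in cell 6 and 551 RPM in cell 1, and 0 reads in cell 4. The lowest of the 7 cells with Plxnd1 was cell 3 at 15.4 RPM. Plxna3 (chromosome X, 74329066 to 74344689), a partner of neuropilins, had a median of 136 RPM, with 609 RPM in cell 4, 0 reads in cells 2 and 5 and 1.51 RPM in cell 3.

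Other plexins passed 1 RPM in 1 to 3 cells each, apart from Plxnb3 with 0 reads. Plxna4, the partner of Nrp1 in the response to Sema3a, stood at 3356 RPM in cell 4, at 7.86 RPM in cell 7 and at 1.74 RPM in cell 8, with 0 reads elsewhere. Plxna1 and Plxna2 were highest in cell 7, at 366 and 345 RPM. Plxna1 was also at 48.3 RPM in cell 4, and 10.8% of its longest transcript matches an antisense transcript, from which it cannot be told apart without strand. Plxnc1 was at 223 RPM in cell 8 and 82.8 RPM in cell 1, and Plxnb1 at 50.3 RPM in cell 7. Per kb the mean levels were 30.6 for Plxnd1, 29.8 for Plxna4, 25.5 for Plxnb2 and 22.6 for Plxna3, and without cell 4 that of Plxna4 was 0.0973 and that of Plxna3 14.8. Plxnb1 minus Plxnb2 had a median of -3.95 log2 units per kb (SD 1.66) and was below 0 in 7 cells. Plxna3 minus Plxna4 had a median of 1.37 (SD 2.69), above 0 in 5 cells and below 0 in cell 4 only, and leaving out any of cells 2, 3, 4 and 5 made it 2.49, any of cells 1, 6, 7 and 8 made it 0.25.

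Of the EphA receptors Epha7, Epha5 and Epha4 were detected in 6, 6 and 5 cells. Epha7 (chromosome 4, 28813131 to 28967499) had a median of 158 RPM, with 643 RPM in cell 2, 526 in cell 8 and 413 in cell 6, and with 0.202 RPM in cell 4 and 0 in cell 5. Epha4 (chromosome 1, 77367185 to 77515088, minus strand), which binds ephrins of both classes, reached 521 RPM in cell 6 and 463 RPM in cell 3, with a median of 102 RPM and 0 reads in cells 4 and 5. Epha5 (chromosome 5, 84054761 to 84417382, minus strand) was highest in cell 3 at 184 RPM, with a median of 24.0 RPM, 0.565 RPM in cell 6 and 0 reads in cell 5. Cell 5 thus had 0 reads of all 3, and no EphA receptor was detected in it. Per kb the means were 24.5 for Epha7, 21.1 for Epha4 and 3.95 for Epha5. Epha4 minus Epha5 had a median of 0.74 log2 units (SD 2.44), smaller than its spread, and leaving out any of cells 2, 4, 5 and 8 made it 1.49, any of cells 1, 3, 6 and 7 made it 0. Epha1 was detected in cell 4 only (81.9 RPM), Epha10 in cell 1 only (3.28 RPM), and Epha2, Epha3, Epha6 and Epha8 had 0 reads.

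Ligands of the A class were found in 3 cells. Efna5 stood at 485 RPM in cell 4, 152 RPM in cell 8 and 81.2 RPM in cell 7, and at 0.223 RPM or less in the others. Efna3 was at 154 RPM in cell 4 with 0 reads elsewhere. Of its longest transcript 14.6% matches an antisense transcript. Efna1, Efna2 and Efna4 had 0 reads in all cells. EphA receptors were thus detected in 7 cells and A-class ligands in 3, and in all 3 beside a receptor.

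In the B class, Ephb6 was detected in 7 cells and its relatives in few. Ephb6 (chromosome 6, 41605482 to 41620509), an Eph receptor whose kinase domain is inactive, stood at 570 RPM in cell 1, at 8.85 to 129 RPM in 6 cells and at 0 in cell 4, with a median of 56.4 RPM. Ephb2 was detected in cells 6, 3 and 1 at 104, 56.9 and 45.5 RPM, and Ephb3 in cell 8 at 16.1 RPM. Ephb1 and the vein marker Ephb4 had 0 reads. Per kb the mean was 29.6 for Ephb6 and 2.05 for Ephb2.

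The ephrin-B ligands differed in the cells that held them. Efnb3 (chromosome 11, 69554092 to 69560205, minus strand) stood at 804 RPM in cell 4, 95.6 in cell 8, 55.3 in cell 7 and 43.4 in cell 6, and at 0.253 RPM or less in the rest. Efnb1 stood at 207 RPM in cell 2, 201 in cell 3, 69.1 in cell 6, 4.93 in cell 7 and 1.79 in cell 5, and had 0 reads in cells 1, 4 and 8. Cells 6 and 7 were the only ones with both. Efnb2, the artery marker of the class, was detected in cell 4 only, at 13.1 RPM. Efnb2 minus Efnb3 had a median of -1.98 log2 units per kb (SD 2.69), and leaving out any of cells 4, 6, 7 and 8 made it -0.11, any of cells 1, 2, 3 and 5 made it -3.84. Efnb1 minus Efnb2 had a median of 0.94 (SD 2.91), and leaving out any of cells 1, 4, 5 and 8 made it 1.28, any of cells 2, 3, 6 and 7 made it 0.60.

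Ligands and receptors were set side by side in each cell, over 94 pairs. The semaphorin, slit and netrin pairs were written out by known binding. The 45 ephrin-A and 15 ephrin-B pairs join every ligand with every receptor of its class, whether or not that pair is known to bind. Pairs across the ephrin classes and Ntn1 with Neo1 were not in the list, so counts over it depend on how it was drawn up. Both genes were detected in the same cell in at least 6 of 8 cells for 2 pairs (2.13%), Ntn1 with Unc5c in 7 cells and Sema4d with Plxnb2 in 6. Each of these 4 genes was detected in 7 cells, so a large overlap follows from how widely each was detected. At least 1 cell held both genes for 28 pairs, and no cell did for 66, of which 39 were ephrin-A pairs and 16 semaphorin pairs. Efnb1 with Ephb6 followed with 5 cells and Ntn1 with Unc5a with 4. Without cell 1, 4 or 8 the count at 5 of 7 cells was 3, with Efnb1 and Ephb6 added. Slit3 with Robo1 reached 3 cells. The counts concern transcripts in 1 cell and not binding.

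**Figure D4:**
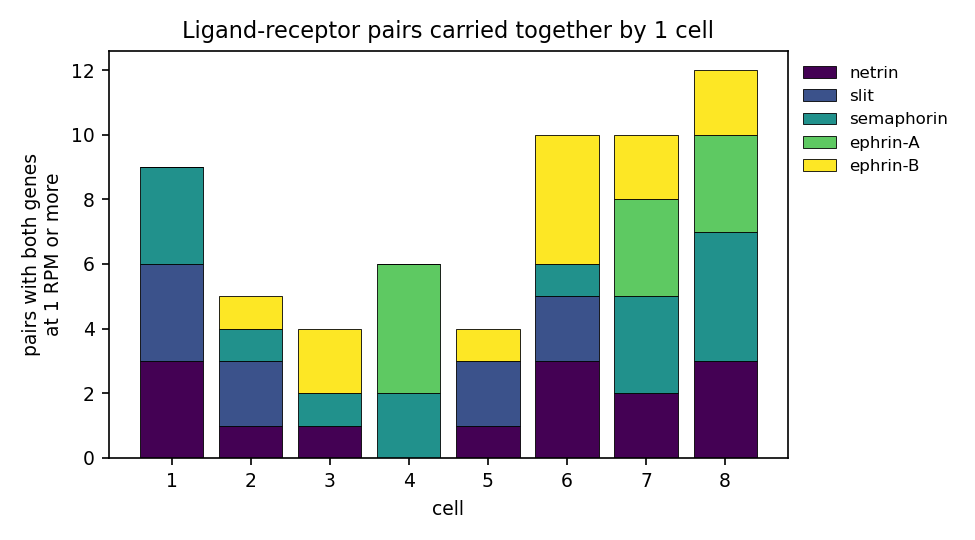
Number of the 94 ligand-receptor pairs of which a cell (horizontal axis) detected both genes at 1 RPM or more (vertical axis), coloured by system. Cell 8 held 12 pairs and cells 3 and 5 held 4, and cell 4 held 6, of which 4 were ephrin-A, 2 semaphorin and none netrin or slit.

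To see how the members varied, each cell in turn was asked for genes in which it lay above or below all 7 others by more than 2 log2 units of RPM + 1, among the 17 members detected in at least 4 cells (24.7% of symbols were so detected). Cell 4 lay below for 4 of 17 (Ntn1, Unc5c, Plxnd1 and Ephb6), beside 3.87% of the 5936 symbols detected in at least 4 cells, and above for 1 (Efnb3), beside 1.55%. Cell 1 lay above for Ephb6 (0.91% of symbols). Cell 2 lay below for Sema4d (1.62%), cell 5 for Plxnb2 (4.46%) and cell 6 for Slit3 (3.69%). Cells 3, 7 and 8 lay outside for no member, and neither did the remaining directions of cells 1, 2, 5 and 6. Among symbols those calls came to 1.28% above and 1.92% below in cell 3, 0.96% and 1.16% in cell 7, and 0.91% and 0.59% in cell 8. They came to 0.354% below in cell 1 and to 1.25%, 1.84% and 1.36% above in cells 2, 5 and 6. Of the 13 members detected in exactly 1 cell, cell 4 held Nrp1, Efna3, Epha1 and Efnb2 (30.8%, beside 14.7% of the symbols found in 1 cell alone), and cell 8 held Sema3a, Sema4c, Unc5b and Ephb3 (30.8% beside 17.2%). Cell 1 held Robo2, Sema6b and Epha10 (23.1% beside 19.4%), and cell 7 held Plxna2 and Plxnb1 (15.4% beside 14.2%), both near the share of symbols.

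Of the 17 members that cell 4 detected, 9 were at their highest there, beside 29.3% of the 5140 symbols that it detected. These were Nrp1, Plxna4, Plxna3, Slit3, Efnb3, Efna5, Efna3, Epha1 and Efnb2. Of the 9 members detected in at least 6 of the other 7 cells, 5 were under 1 RPM in cell 4, namely Ntn1, Unc5c, Plxnd1, Ephb6 and Epha7, beside 24% of the 2675 symbols so detected. Across the 44 members detected in any cell, the Spearman correlation of cell 4 with another cell had a median of 0.0520, and that of the other cells had medians of 0.242 (cell 5) to 0.539 (cell 3). These correlations are across genes, many of them at 0 in both cells.

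**Figure D5:**
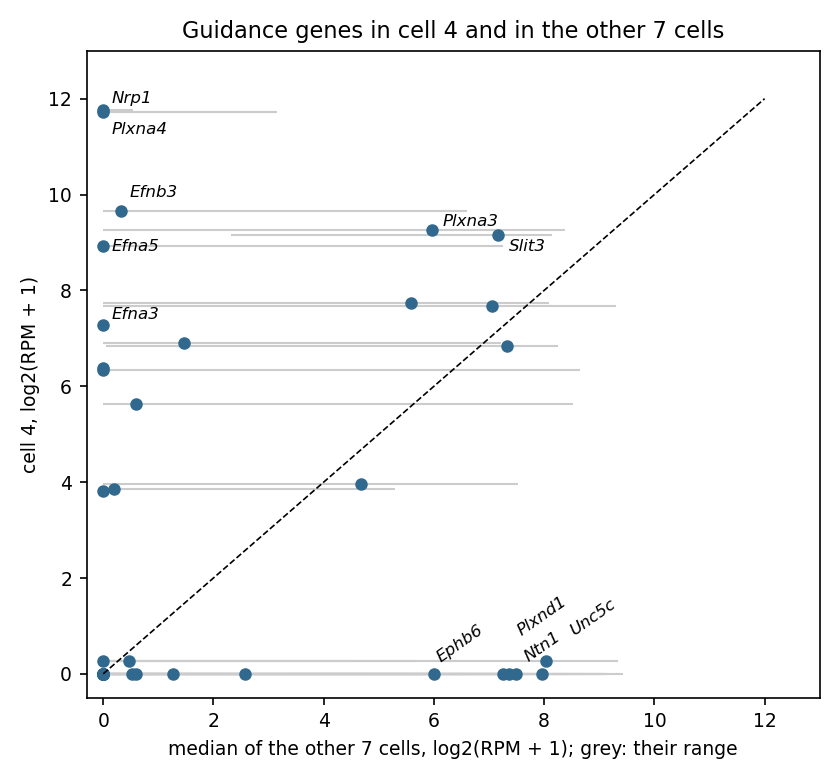
Level of the 44 guidance genes in cell 4 (vertical axis) against the median of the other 7 cells (horizontal axis), both as log2(RPM + 1), with the range of the 7 as a grey line and equality dashed. Nrp1, Plxna4, Efnb3, Efna5 and Efna3 lie above the grey range at the left, and Ntn1, Unc5c, Plxnd1 and Ephb6 lie at 0 in cell 4.

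The spread of the members between cells was set beside that of other genes. The SD of log2(RPM + 1) over the 8 cells had a median of 3.11 over the 17 members detected in at least 4 cells, from 2.15 for Slit3 to 3.95 for Epha4. Over all 5936 symbols so detected the median was 2.98, but these include many symbols detected in all 8 cells. Among genes detected in 4 to 7 cells, the median was 3.11 over 16 members and 3.16 over 4763 symbols. Epha4, Plxna3 (3.94) and Nrp2 (3.94) were high in some cells and at 0 reads in others.

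Genes that work with the guidance receptors were taken from 3 lists. Of 20 co-receptor and adhesion genes 5 were detected in at least 6 cells, against 14.2% of all symbols. Values are given for 4 genes a list, taken by their mean log2(RPM + 1), a scale not corrected for length. Among the co-receptors these were Lingo1, a part of the Nogo receptor complex, at a median of 144 RPM, the Wnt receptor gene Ryk at 138 RPM, the adhesion gene Cntn1 at 414 RPM and L1cam, a partner of Nrp1, at 150 RPM. Lingo1 and L1cam were detected in all 8 cells. Ryk had 0.202 RPM in cell 4, and Cntn1 had 0 in cell 4 and 0.925 RPM in cell 7. Kdr and Flt1, receptors for the vascular growth factor that also binds neuropilins, had 0 reads.

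Of 55 cytoplasmic mediators 23 were detected in at least 6 cells, against the same 14.2%. Dpysl2 and Dpysl3, collapsin response mediators that act below semaphorin receptors, were in all 8 cells with medians of 836 and 567 RPM. Dpysl3 was highest in cell 4, at 2539 RPM against at most 877 RPM elsewhere. The small GTPase gene Rac1 had a median of 368 RPM and the kinase gene Pak2 323 RPM, both in 8 cells. Of 9 protease genes 5 were detected in at least 6 cells, again against 14.2%. Bace1 had a median of 151 RPM, Adam10, which sheds ephrins, 167 RPM, Furin, which processes secreted semaphorins, 29.4 RPM and Ncstn, of gamma-secretase, 51.5 RPM. Bace1 had 0 reads in cell 4, Adam10 was under 1 RPM in cells 2 and 5, Furin in cell 5 and Ncstn in cells 4 and 7. Of all 84 partner genes 33 passed in at least 6 cells (14.2% of symbols), and 38 passed in at least 5 of 7 without cell 4 (16.4% of symbols).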

How the data were processed

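The deposited files hold, for each of 8 cells, a raw read count and an RPM value for 24060 gene symbols, per the file headers. The authors' RPM equalled everywhere the deposited count divided by the cell's total, times a constant. The submitters' processing notes name the aligner Bowtie and the build mm10, and amplified cDNA went into Illumina DNA library kits, Nextera among them, per the labels' protocols. For the counter, annotation, strand setting and reads with several matches, the labels and headers give nothing. The protocols mention no molecular identifiers. The 71 members were matched by symbol, and all had a position and exon length in GENCODE M21. BLAST 2.17.0 (at least 97% identity over 50 bases) compared the longest transcript of the 44 detected members with those of all other genes, and the largest share matched was 14.6%, for Efna3. Values were computed with Python 3.11.15 and pandas 2.3.3, with a pseudocount of 1. The script that calls outlying cells was tested on simulated data. Alternatives were a detection limit of 10 RPM, any read, median-of-ratios size factors, a pseudocount of 0.1, other lengths, a margin of 1 log2 unit and leaving out each cell. Named are members detected in at least 4 cells, members of fewer cells that reach 100 RPM, further members singled out after their values were seen, and the 4 highest of each partner list. Members and lists were chosen with earlier results of these data known. 1 of the listed marker genes is not reported here.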

Additional observations from a re-analysis of the deposited data

Results flagged for a closer look

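In 21 sets of 8 values (the 17 members detected in at least 4 cells and 4 totals per cell), the gap of the highest or lowest cell to its nearest neighbour was set against the whole range, and 4 passed Dixon's 95% limit for 8 values. Chance alone passes about 1 in 20 sets only if values are normal and sets independent. Many of these gene sets hold values of 0, and the total of all members contains that of the receptors. That rate therefore does not carry over to them. For Ntn1, cell 4 was lowest at 0, with the next cell at 80.2 RPM, a gap of 0.698 of the range of log2(RPM + 1). For Plxnb2, cell 5 was lowest at 0, with the next at 60.3 RPM, a gap of 0.639. The totals were taken in RPM, on which a high value lies further out than on the log2 scale of the genes. Their gaps are thus not comparable with those of the genes and rest on that scale. The summed level of all members was highest in cell 4, at 10342 RPM against 3599 RPM in the next cell, a gap of 0.736 of the range in RPM. The summed level of the receptors was highest in cell 4 too, at 7857 RPM against 2895 RPM, a gap of 0.689 in RPM. Without Nrp1 and Plxna4 the members summed to 3522 RPM in cell 4, within the range of the other cells.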

How the results depend on the processing

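Among 177 recomputed values no difference changed sign. Counts, SDs, Ntn1 minus Ntn4 and the pairs with a median of 0 could not do so by construction. Nor could leaving out a cell reverse Slit2 minus Slit3, Unc5b minus Unc5c, Plxnb1 minus Plxnb2, Efnb2 minus Efnb3 or Sema4d minus Sema4c. No cell had the opposite sign for these pairs. Epha4 minus Epha5 fell to 0 without cell 1, 3, 6 or 7. Of the 177 values, 11 moved by more than 1.5 times (counts) or by 1 SD or more (differences and spread). The other 166 stayed within those wide bounds, among them the differences whose shifts are given above for Plxna3 and Plxna4, Epha4 and Epha5, and the ephrin-B genes. At a detection limit of 10 RPM, 21 of the partner genes in place of 33 were detected in at least 6 cells. With a pseudocount of 0.1, Ntn1 minus Ntn4 was 7.87, Unc5b minus Unc5c -6.34, Plxnb1 minus Plxnb2 -6.87, Sema4d minus Sema4c 7.46 and the median spread of members 4.17 (4.14 over all symbols). With no length correction, Slit2 minus Slit3 was -1.07, Ntn1 minus Ntn4 7.20, Unc5b minus Unc5c -7.27, Plxnb1 minus Plxnb2 -6.50 and Sema4d minus Sema4c 7.08. Apart from Slit2 and Slit3, these pairs have a member at or near 0 reads in most cells, so their size depends on the pseudocount. With 1 cell left out, 11 to 13 members were detected in at least 5 of 7 cells and 40 to 44 in any. Without cell 4 these counts were 13 and 40, beside 16.4% and 43.5% of symbols. For the other cells the share of symbols was not computed. With all 8 cells and a limit of 10 RPM, 9 members passed in 6 or more and 41 in any (9.86% and 40.5% of symbols), and with any read 13 and 45 (18.6% and 48.3%). No second group exists, so no paired comparison was made. Each value rests on 1 amplified cell, and lost transcripts and absent ones cannot be told apart.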
